A study of Mus musculus with 38 samples.

Results

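Nucleic acid sensors and the transcription factors of the interferon response were followed in endothelial cells, stromal progenitors, osteoprogenitors and myeloma cells of mouse bone. The group was defined by symbol as 5 sensors or regulators of sensing (Zbp1, Ddx58, Ifih1, Dhx58 and Tlr3) and 4 transcription factors (Stat2, Irf1, Irf7 and Irf9). All 9 of these genes were found among the 13260 genes of the deposited table. C57Bl/KaLwRij mice aged 8 to 10 weeks were given PBS vehicle (healthy) or 5TGM1-GFP cells (myeloma-bearing) by the intravenous route, and were culled on day 23. The 5TGM1 line is a mouse myeloma that grows in this strain, and the GFP it carries was used to sort it. Healthy and myeloma-bearing mice each gave 5 libraries of endothelial cells (CD31+), 5 of stromal progenitors (Sca1+ALCAM-) and 4 of osteoprogenitors (ALCAM+Sca1-), and myeloma-bearing mice gave 5 libraries of myeloma cells from the bone lining and 5 from the central marrow. Each of the 38 libraries was made from 100 sorted cells. Libraries are named here by the letter in their code, which the labels do not tie to a single mouse, so p-values measure the spread between libraries.

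Cells recognise foreign or misplaced nucleic acid with dedicated receptors. Ddx58 (RIG-I) and Ifih1 (MDA5) are cytosolic helicases that bind viral RNA and signal to type I interferon, Dhx58 (LGP2) is a related helicase without the signalling domains that tunes both, Tlr3 recognises double-stranded RNA in endosomes, and Zbp1 binds left-handed Z-form nucleic acid and can start necroptosis. Type I interferon then acts through its receptor on ISGF3, a complex with Stat2 and Irf9 that binds interferon-stimulated response elements (ISREs), while interferon gamma acts on gamma-activated sites (GAS). Irf1 and Irf7 are themselves interferon-induced factors, and Irf7 amplifies the production of type I interferon. Most genes of the group are therefore both parts and targets of the pathway.

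The promoters of the group are shown first because such elements are the known entry points of the factors measured here. RefSeq windows on GRCm38.p6, from 250 bases before to 50 bases after a start site, were at hand for 7 of the 9 genes (9 windows). Zbp1 and Dhx58 had no entry. An ISRE core was searched as GAAANNGAAA on both strands and a GAS as TTCNNNGAA, which reads the same on both strands. The ISRE core was in 3 of the 7 genes and in 3.44% of all 32851 windows, and the GAS was in 1 of the 7 and in 8.3% of all windows. The matches are given 5′ to 3′ along the gene's own strand with the matched bases in capitals.
Ddx58: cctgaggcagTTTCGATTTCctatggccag
Ifih1: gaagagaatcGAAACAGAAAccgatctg
Stat2: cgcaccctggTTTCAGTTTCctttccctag
Irf1: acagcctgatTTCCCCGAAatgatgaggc
In the Ddx58 stretch (chr4:40239804-40239833, minus strand) the capitals begin 2 bases after the start site and hold the core on the opposite strand, and in the Ifih1 stretch (chr2:62646206-62646233, minus strand) they begin 32 bases after it. In the Stat2 stretch (chr10:128270266-128270295, plus strand) they begin at position -222 from the start site, again with the core on the opposite strand. In the Irf1 stretch (chr11:53769914-53769942, plus strand) the GAS begins at position -90 from the first of its 2 start sites. No match was found in the windows of Irf7, Irf9 and Tlr3. A match describes letters and not binding.

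On the annotation of GRCm38 (GENCODE vM21) Zbp1 lies at chr2:173206612-173218923, Ddx58 at chr4:40203773-40239828, Ifih1 at chr2:62595798-62646255 and Stat2 at chr10:128270559-128292849, with no overlapping gene. Dhx58 (chr11:100694884-100704271) shares 141 exonic bases with its antisense gene Dhx58os. Irf1 (chr11:53770014-53778374) shares 135 with Gm17334, Tlr3 (chr8:45395665-45411080) 381 with the antisense Gm45542 and Irf7 (chr7:141262706-141266481) 45 with Phrf1, in each case on the opposite strand. Irf9 (chr14:55603571-55610030) shares 123 exonic bases with Rnf31 on the same strand. Strand was not recorded, so reads in the shared bases cannot be told apart.

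Depth and purity bear on these 100-cell libraries. Reads on genes, recovered from the RPKM steps, ran from 9735031 to 34883291 per library. Endothelial markers summed to between 2057 and 4384 RPKM in endothelial libraries and to at most 29.7 RPKM in the others. Osteoprogenitor markers summed to at least 8094 RPKM in osteoprogenitors and at most 1214 RPKM elsewhere, and plasma and myeloma cell markers to 3312 to 9982 RPKM in myeloma cells and no more than 34.2 RPKM in niche cells. Of the 6 stromal progenitor markers Prrx1 and Pdgfra separated healthy stromal progenitors (36.2 to 144 RPKM and 34.2 to 75.6 RPKM) from healthy endothelial cells (0.0287 to 22.9 RPKM and 0.0507 to 6.01 RPKM). Pdgfrb overlapped between them, and Ly6a, which encodes Sca1, Lepr and Cxcl12 had higher medians in the endothelial cells. Prrx1 in healthy osteoprogenitors was 6.23 to 58.6 RPKM, so it did not separate the mesenchymal sorts. In stromal progenitors, 2 libraries stood apart, with neutrophil markers (S100a8, S100a9, Ngp and Camp) at 7233 RPKM in healthy L and 8061 RPKM in myeloma-bearing E and at most 179.8 RPKM in the others. Macrophage markers (6 of 9 in the table) reached 341 RPKM in healthy endothelial M and 229 RPKM in myeloma-bearing endothelial I, with at most 71.2 RPKM in other endothelial libraries.

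The level of each gene in every library is plotted by group. Endothelial cells of myeloma-bearing mice had the highest mean log2(RPKM + 1) of the 8 groups for 6 of the 9 genes, osteoprogenitors of myeloma-bearing mice for 2 (Dhx58 and Irf1) and healthy endothelial cells for 1 (Ifih1). Central marrow myeloma cells were lowest for 4. Spread within a group was wide, and of 63 pairs of neighbours in these orders only 2 were apart by more than the sum of their SDs, the step from endothelial cells of myeloma-bearing mice to the next group for Ddx58 and for Irf7.

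**Figure D1:**
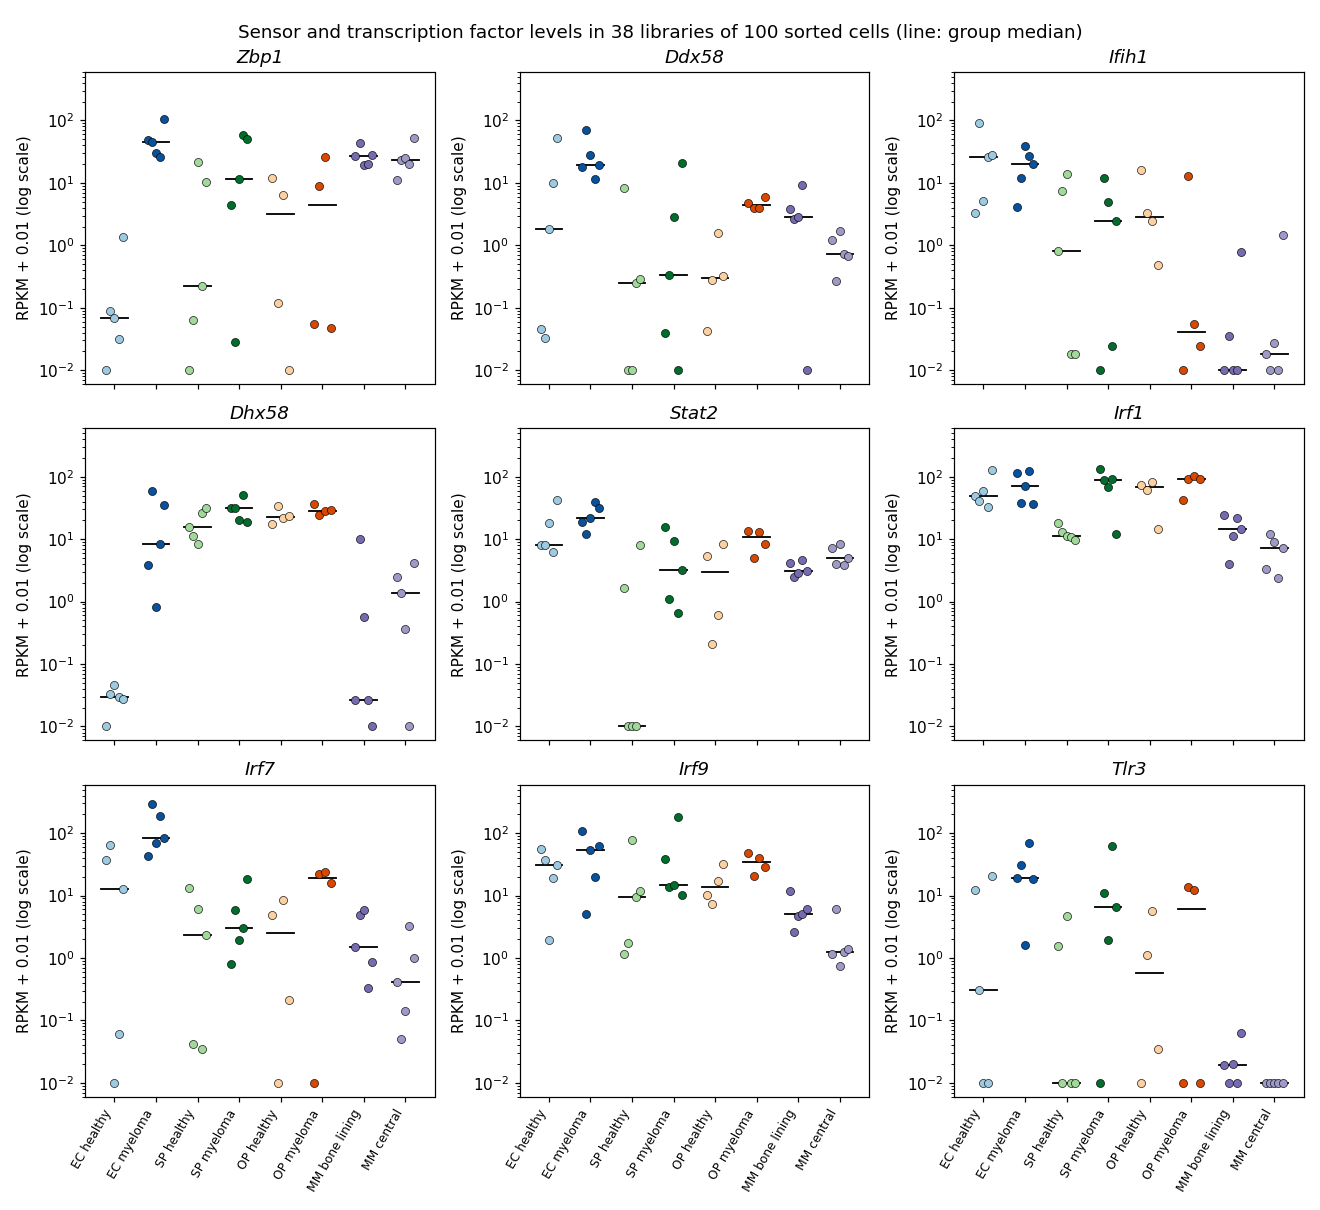
RPKM + 0.01 on a log axis for each of the 9 genes in 38 libraries, by group (EC endothelial cells, SP stromal progenitors, OP osteoprogenitors, MM myeloma cells), with a line at the median of each group. Zbp1 and Dhx58 show no overlap between EC healthy and EC myeloma, and Tlr3 lies at or near 0 in all 10 MM libraries.

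The first question was which of these genes differ between healthy and myeloma-bearing mice in each niche cell type. In endothelial cells all 9 genes passed the filter, which asked for over 1 RPKM in 4 or more of the compared libraries. Of the 9, 0 passed limma at an adjusted p below 0.1 with a log2 difference above 1, as did 0% of the 7880 genes tested. At an unadjusted limma p below 0.05 there were 3 of the 9 (Zbp1, Dhx58 and Irf7) and 5.25% of all genes. Zbp1 and Dhx58 passed the filter through the myeloma-bearing libraries, so this count is no test of the group. The same 3 genes passed both thresholds as higher when all 38 libraries were fitted together, where 0.781% of genes did so in limma and 1.4% in voom-limma on recovered reads. In stromal progenitors the main fit called 0 of the 8 genes tested and 0% of all genes, with 1 gene (Irf1) at an unadjusted limma p below 0.05, as were 5% of all genes. In osteoprogenitors limma called 0 of 9 and 0.0115% of all genes, with 1 (Ddx58) below that unadjusted p, as were 4.87% of all genes. Ddx58 passed the filter there through the myeloma-bearing libraries. Both fits of all 38 libraries also called none of the group in stromal progenitors (0.15% of genes higher in limma, 0.37% in voom-limma) or osteoprogenitors (0.11% and 0.158%).

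Without a threshold, 8 of 9 fitted differences were positive in endothelial cells (median log2 difference 2.50, against 0.07 over all genes tested), 8 of 8 in stromal progenitors (1.49, against -0.00) and 8 of 9 in osteoprogenitors (0.93, against -0.03). Ifih1 was the gene with a negative estimate in both cases, and Ddx58 failed the filter in stromal progenitors. Over all genes tested 52.9%, 50% and 48.4% were positive. The filter lets a gene pass through the group in which it is high. It did so for Zbp1 and Dhx58 in endothelial cells and for Ddx58 in osteoprogenitors. These counts therefore describe the group and are no test of it.

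**Figure D2:**
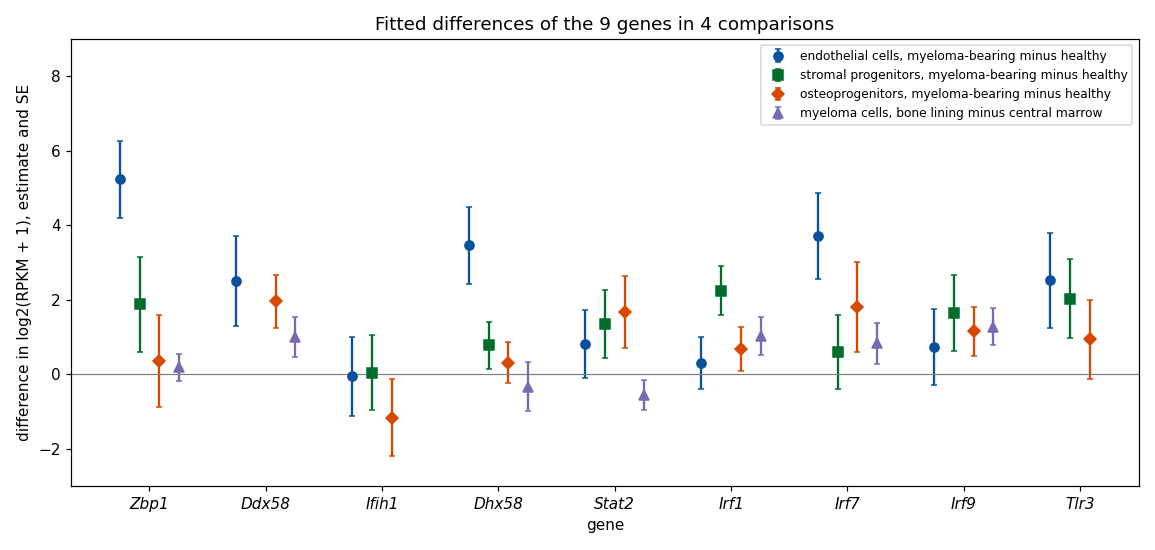
Difference in log2(RPKM + 1) with its SE from limma on the libraries compared, for each gene in 3 niche cell types and in myeloma cells; genes that failed the filter have no point. The endothelial estimates of Zbp1 (5.23), Irf7 (3.72) and Dhx58 (3.46) are the highest plotted.

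Zbp1 was near 0 in 4 of the 5 healthy endothelial libraries. Its level there was 0, 0.0790, 0.0593, 0.0218 and 1.37 RPKM in libraries C, L, M, N and O, from 0 to 72 reads. In endothelial cells of myeloma-bearing mice it was 47.9, 45.6, 30.0, 26.0 and 106 RPKM in D, E, G, I and J. The groups did not overlap, and the lowest myeloma-bearing library was 19.0-fold above the highest healthy library. Zbp1 was 1 of 2 genes of the group, with Dhx58, for which every myeloma-bearing endothelial library exceeded every healthy one, as did 0.571% of all genes tested. Both passed the filter through the myeloma-bearing libraries, so this count is no test. The lack of overlap of Zbp1 and its p-values on these libraries are no independent support. The fitted log2 difference was 5.23 ± 1.03 (SE, n = 5 and 5), with adjusted p = 0.253 in limma on these libraries, 0.00547 in limma on all 38 and 0.000819 in voom-limma on all 38, where the difference was 9.36. An exact two-sided permutation test gave p = 0.00794, the smallest possible for 5 against 5, in 1 of 36 such tests on the group.

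Zbp1 in the mesenchymal cells varied from library to library. Healthy stromal progenitors had 0, 0.0542, 21.8, 0.212 and 10.2 RPKM in C, L, M, N and O. Those of myeloma-bearing mice had 4.43, 0.0178, 11.5, 58.5 and 51.1 RPKM in D, E, G, I and J, a log2 difference of 1.87 ± 1.27 (SE) with adjusted p = 0.971 in limma. The ranges overlapped, and the neutrophil-rich library E held a single Zbp1 read. In osteoprogenitors 2 of 4 healthy and 2 of 4 myeloma-bearing libraries were above 1 RPKM, with means of 4.64 ± 5.81 and 8.82 ± 12.4 RPKM (SD, n = 4). Myeloma cells all expressed the gene, from 11.1 to 51.5 RPKM in 10 libraries.

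Dhx58 was near 0 in healthy endothelial cells alone among the niche groups. Healthy endothelial libraries C, L, M, N and O held 0, 1, 2, 1 and 1 reads (at most 0.0354 RPKM), 5 reads in all with an exact 95% Poisson interval of 1.62 to 11.7 reads, or at most 0.0466 RPKM, which covers counting error only. Libraries D, E, G, I and J of myeloma-bearing mice had 3.82, 58.8, 0.815, 8.30 and 35.5 RPKM, from 32 to 2951 reads. Every one of them lay above every healthy library, over a wide range among themselves. The log2 difference was 3.46 ± 1.03 (SE, n = 5 and 5), with adjusted p = 0.821 in limma on these libraries, 0.0122 in limma on all 38 and 4.41e-05 in voom-limma on all 38, where the difference was 8.61. Only D, E, I and J exceeded 1 RPKM, so leaving out any 1 of them dropped Dhx58 below the filter. Dhx58 reached the filter only through these myeloma-bearing libraries, so it had to differ in limma on the libraries compared. The exact two-sided permutation p was 0.00794. Neither this p nor the lack of overlap is therefore independent support.

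Stromal progenitors and osteoprogenitors carried Dhx58 whether or not myeloma was present. It ran from 8.49 to 31.4 RPKM in healthy stromal progenitors, from 18.6 to 51.6 in those of myeloma-bearing mice, from 17.7 to 33.5 in healthy osteoprogenitors and from 24.2 to 37.1 in those of myeloma-bearing mice. All 18 of these libraries were thus above all healthy endothelial libraries. The difference with myeloma was 0.77 ± 0.63 (SE) on the log2 scale in stromal progenitors and 0.30 ± 0.55 in osteoprogenitors, with 95% intervals of -0.56 to 2.10 and -0.88 to 1.48.

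Whether the change in Dhx58 differed between cell types was tested as an interaction. The endothelial difference exceeded the stromal one by 2.69 ± 1.19 on the log2 scale (SE, limma adjusted p = 0.920) and the osteoprogenitor one by 3.16 ± 1.24 (adjusted p = 0.998). In limma on all 38 libraries the same contrasts had adjusted p = 0.376 and 0.419. In voom-limma on all 38 they had adjusted p = 0.0157 and 0.0191, and Dhx58 was then the single gene of the 9 called in each, where 0.385% and 0.113% of all genes were. The main fit called no gene of the group in any of the 3 interactions, with 0% of all genes called between endothelial cells and stromal progenitors, 0% between endothelial cells and osteoprogenitors and 0% between stromal progenitors and osteoprogenitors. At an unadjusted limma p below 0.05 there were 3 (Zbp1, Dhx58 and Irf1), 2 (Zbp1 and Dhx58) and 0 of the 9, beside 5.21%, 4.8% and 4.07% of all genes. Voom-limma on all 38 called none of the 9 in the last of these contrasts, beside 0.121% of genes. The 2 endothelial contrasts share the endothelial libraries.

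Ddx58 was uneven in healthy endothelial cells, at 0.0350, 0.0230, 1.82, 9.82 and 52.9 RPKM in C, L, M, N and O. It was at 18.2, 71.4, 27.8, 11.3 and 19.1 RPKM in D, E, G, I and J of myeloma-bearing mice. All of the latter were above 4 of the 5 healthy libraries and the ranges overlapped through healthy O. The log2 difference was 2.50 ± 1.22 (SE) with adjusted p = 0.925 in limma, and the exact permutation p was 0.0873.

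In osteoprogenitors Ddx58 was low in both groups and did not overlap between them. Healthy libraries L, M, N and O had 0.0317, 0.272, 1.54 and 0.308 RPKM, from 2 to 123 reads, and myeloma-bearing libraries D, G, I and J had 4.73, 3.94, 3.95 and 5.97 RPKM, from 237 to 362 reads. The 4 myeloma-bearing libraries were close to each other at 4.65 ± 0.957 RPKM (SD). It was the only gene of the 9 without overlap in osteoprogenitors, where 1.34% of all genes tested had every myeloma-bearing library above every healthy one. Among healthy libraries only N exceeded 1 RPKM, so Ddx58 passed the filter through the myeloma-bearing libraries. The lack of overlap and the p-values that follow are therefore no independent support. The log2 difference was 1.95 ± 0.71 (SE, n = 4 and 4), with adjusted p = 0.981 in limma and an exact permutation p of 0.0286, the smallest possible for 4 against 4. In stromal progenitors Ddx58 passed 1 RPKM in healthy C (8.39 RPKM) and in myeloma-bearing G (2.84 RPKM) and J (20.5 RPKM).

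Ifih1 had estimates near 0 in endothelial cells and stromal progenitors. Endothelial cells averaged 30.5 ± 35.2 RPKM in healthy and 20.3 ± 13.4 RPKM in myeloma-bearing mice (SD, n = 5), and all 10 libraries were above 3 RPKM. The log2 difference was -0.06 ± 1.05 (SE), with a 95% interval from -2.26 to 2.13. Stromal progenitors spanned 0.00811 to 14.1 RPKM in healthy mice and 0 to 11.8 RPKM in myeloma-bearing mice. In osteoprogenitors the 4 healthy libraries had 0.473 to 16.1 RPKM, and of the myeloma-bearing ones G had 12.8 RPKM while the other 3 had no more than 4 reads. Ddx58 and Ifih1, the paired cytosolic RNA sensors, thus had estimates of 1.95 and -1.17 in osteoprogenitors, neither of them past the limma thresholds.

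Tlr3 varied within the niche groups, from no read to 68.4 RPKM. Healthy endothelial libraries C, L, M, N and O had 12.1, 0.303, 0, 0 and 20.6 RPKM, and those of myeloma-bearing mice (D, E, G, I and J) 19.3, 31.2, 1.63, 68.4 and 18.5 RPKM. The ranges overlapped, with a log2 difference of 2.52 ± 1.28 (SE), adjusted p = 0.925 in limma and an exact permutation p of 0.0714. Stromal progenitors averaged 1.24 ± 2.02 RPKM in healthy and 16.1 ± 25.5 RPKM in myeloma-bearing mice (SD, n = 5), the latter carried by library I at 61.1 RPKM. The stromal log2 difference was 2.03 ± 1.05 (SE), or 1.24 without that library. Of 14 healthy niche libraries 7 had 3 Tlr3 reads or fewer, as had 3 of 14 from myeloma-bearing mice.

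Irf7, the amplifier of the response, had its highest levels in endothelial cells of myeloma-bearing mice. Healthy endothelial libraries C, L, M, N and O had 37.2, 64.0, 0, 0.0506 and 12.7 RPKM. Libraries D, E, G, I and J of myeloma-bearing mice had 42.5, 292, 68.2, 186 and 83.6 RPKM. Of these, 4 of 5 exceeded every healthy library, and D lay between healthy C and L. The log2 difference was 3.72 ± 1.16 (SE, n = 5 and 5), with adjusted p = 0.821 in limma on these libraries, 0.0893 in limma on all 38 and 0.0792 in voom-limma on all 38, where the difference was 5.80. The exact permutation p was 0.0159.

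Elsewhere Irf7 was lower. Stromal progenitors averaged 4.37 ± 5.60 RPKM in healthy and 6.04 ± 7.29 RPKM in myeloma-bearing mice (SD, n = 5). In osteoprogenitors the healthy libraries L, M, N and O had 4.89, 0, 8.5 and 0.205 RPKM and the myeloma-bearing libraries D, G, I and J had 0, 22.4, 24.1 and 15.9 RPKM. Among the latter, 3 of 4 were above every healthy library and D had no read, for a log2 difference of 1.80 ± 1.21 (SE), or 2.91 without D, and an exact permutation p of 0.229.

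Irf1, which answers to interferon gamma and other inflammatory signals, was above 1 RPKM in all 38 libraries, as the plot of levels shows. Its clearest difference was in stromal progenitors. Healthy libraries C, L, M, N and O had 18.2, 13.0, 11.4, 10.9 and 9.88 RPKM, a narrow range, and those of myeloma-bearing mice (D, E, G, I and J) had 135, 87.8, 68.7, 91.3 and 12.2 RPKM. Library J lay within the healthy range and the other 4 were at least 68.7 RPKM. The log2 difference was 2.24 ± 0.66 (SE, n = 5 and 5), with adjusted p = 0.811 in limma and an exact permutation p of 0.0238 (1 of the 36 tests), and it was 2.14 without the 2 neutrophil-rich libraries. No gene of the group had every myeloma-bearing stromal library above every healthy one, as 0.354% of all genes tested did. In endothelial cells Irf1 averaged 61.6 ± 38 RPKM in healthy and 77.1 ± 41.2 RPKM in myeloma-bearing mice (SD, n = 5), and in osteoprogenitors 58.3 ± 30.5 and 82.5 ± 27.3 RPKM (SD, n = 4).

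Irf9 and Stat2, the partners in ISGF3, had positive estimates in all 3 niche cell types. For Irf9 the log2 differences were 0.72 ± 1.02 in endothelial cells, 1.64 ± 1.02 in stromal progenitors and 1.15 ± 0.65 in osteoprogenitors (SE), with exact permutation p of 0.484, 0.206 and 0.0857. Its single highest library was stromal I of myeloma-bearing mice at 179 RPKM, against 10.3 to 38.3 RPKM in the other 4 of that group. Without it the stromal difference was 0.98, and the endothelial one was 0.012 without healthy M, 0.30 without myeloma-bearing D and 1.35 without E. For Stat2 they were 0.81 ± 0.92, 1.34 ± 0.92 and 1.67 ± 0.97, with exact permutation p of 0.190, 0.183 and 0.114. Stat2 had no read in 3 of 5 healthy stromal libraries (L, M and N) and at least 71 in each of the 5 from myeloma-bearing mice. The Stat2 difference was 0.89 in stromal progenitors without myeloma-bearing D and 1.23 in endothelial cells without healthy O. Ranges overlapped in each of these 6 comparisons.

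Library by library, the 3 niche cell types were then compared on how many of the 9 genes exceeded the whole healthy range of their type. In endothelial cells it was 3 to 5 of 9 per library, always with Zbp1 and Dhx58, where between 10% and 15.7% of all genes tested did so. In stromal progenitors it was 2 to 5 of 9, led by Irf1, Dhx58 and Tlr3, beside 13.8% to 25.5% of genes. The count in stromal library J includes Ddx58, which failed the filter that the share of all genes rests on. In osteoprogenitors it was 4 of 9 in D, G and J and 7 of 9 in I, always with Ddx58, beside 16.3% to 23.9% of genes. Library I had the highest count in stromal progenitors (5) and osteoprogenitors (7) and also the highest share of all genes there. The 9 genes were chosen with earlier results of these data known, so these counts are no test against the share of all genes.

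**Figure D3:**
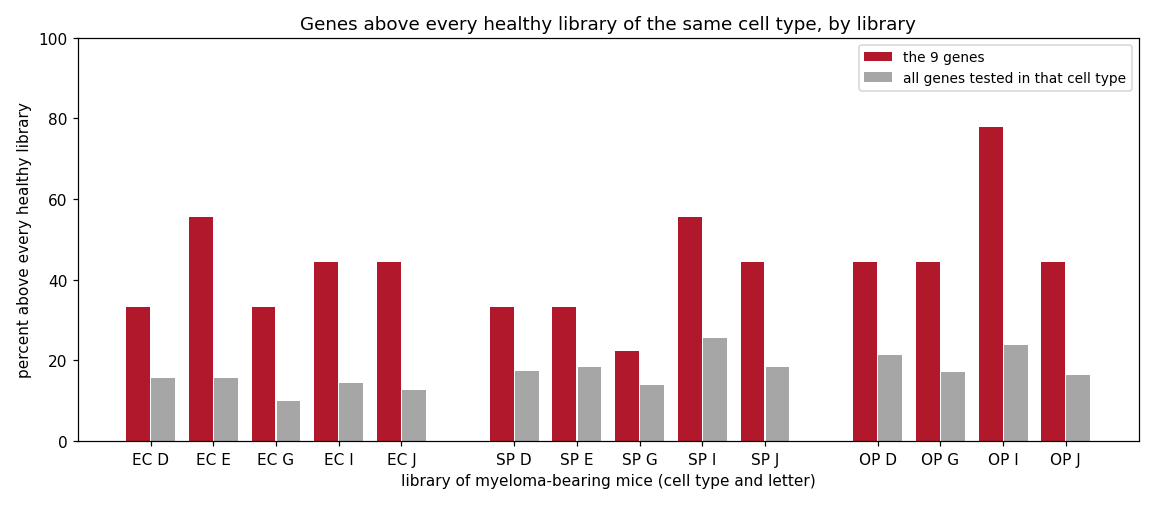
Percent of the 9 genes (red) and of all genes tested (grey) that exceeded the healthy range of their cell type, for each library of myeloma-bearing mice. The red bars run from 22.2% to 77.8% and the grey bars from 10% to 25.5%.

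Markers of other cells were set beside the endothelial difference. Plasma and myeloma cell markers (6 of 8 in the table) summed to 0.0189 to 6.68 RPKM in healthy and 1.64 to 20.2 RPKM in myeloma-bearing endothelial libraries, and their part in the differences was not tested. Zbp1 in those myeloma-bearing libraries (26.0 to 106 RPKM) lay in the same range as in myeloma cells themselves (11.1 to 51.5 RPKM) or above it, and Dhx58 and Irf7 reached 58.8 and 292 RPKM there against at most 9.90 and 5.79 RPKM in any myeloma library. Leukocyte markers (5 of 5) summed to at most 5.23 and 3.13 RPKM. Of the mesenchymal markers Prrx1 had a median of 0.0382 RPKM in healthy and 3.54 RPKM in myeloma-bearing endothelial libraries, and Pdgfrb 0.0158 and 0.454 RPKM, with overlapping ranges. Medians were 0.0856 and 0.137 RPKM for Pdgfra, 31.5 and 26.8 RPKM for Lepr, and 205 and 161 RPKM for Cxcl12. Library E of myeloma-bearing mice held the most Prrx1 (33.4 RPKM), Pdgfrb (17.9 RPKM) and Dhx58 (58.8 RPKM) with Pdgfra at 0.0412 RPKM, while library I had Prrx1 at 0.0200 RPKM and Dhx58 at 8.30 RPKM, and healthy O had Prrx1 at 22.9 RPKM and Dhx58 at 0.0171 RPKM. Osteoprogenitor markers (8 of 8) summed to 16.4 to 104 RPKM in healthy and 20.8 to 155 RPKM in myeloma-bearing endothelial libraries. The highest sums were in healthy O and in myeloma-bearing I. The part of mesenchymal RNA in the Dhx58 difference was not tested. Plasmacytoid dendritic cell markers (4 of 7) summed to at most 0.690 and 0.484 RPKM, with Siglech and Pacsin1 at 0 in every myeloma-bearing endothelial library. Without the 2 endothelial libraries rich in macrophage markers, a choice made after their sums were seen, the log2 difference was 5.37 for Zbp1, 2.76 for Irf7, 2.59 for Ddx58 and 1.63 for Tlr3, and Dhx58 no longer reached the filter. In these bulk samples fewer positive cells and less RNA per cell cannot be told apart.

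The healthy cell types were next compared with each other. Between endothelial cells and stromal progenitors limma called 3 of the 8 genes tested, beside 17.3% of all genes. Dhx58 was lower in endothelial cells by a log2 difference of -4.11 ± 0.72 (SE, adjusted p = 0.00132), and Stat2 and Irf1 were higher by 2.86 ± 0.92 (adjusted p = 0.0529) and 2.05 ± 0.65 (adjusted p = 0.0490). Stat2 averaged 16.6 ± 15.3 RPKM in healthy endothelial cells and 1.92 ± 3.44 RPKM in healthy stromal progenitors (SD, n = 5). The Stat2 call was lost without any 1 of stromal L, M or N or endothelial O (adjusted p 0.1004 to 0.135), the first of which is the neutrophil-rich library. The Irf1 call was lost without endothelial O, at limma adjusted p = 0.113, and with letter as a replicate block, at 0.107. Ifih1 had an estimate of 2.60 ± 1.11 with adjusted p = 0.162, against 0.0400 in limma and 0.0613 in voom-limma on all 38 libraries. Ddx58, Irf7, Irf9 and Tlr3 had estimates from 0.93 to 1.37. Zbp1 did not reach the filter, and Dhx58 reached it only through the stromal progenitor libraries, so it had to differ.

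Between healthy endothelial cells and osteoprogenitors 1 of 8 genes passed in limma, again Dhx58 at -4.59 ± 0.70 (SE, adjusted p = 0.000821), beside 16.5% of all genes. Dhx58 reached the filter only through the 4 osteoprogenitor libraries, so it had to differ, and leaving out any 1 of them dropped it below the filter. Stat2 had an estimate of 2.07 ± 0.99 with adjusted p = 0.228, against 0.0461 in limma and 0.126 in voom-limma on all 38 libraries. The other 6 genes tested had estimates from 0.16 to 2.03. Between healthy stromal progenitors and osteoprogenitors limma called 0 of 8, beside 3.58% of all genes, with 1 gene (Irf1, -1.89 ± 0.62) at an unadjusted p below 0.05, as were 13.1% of all genes. The other 7 genes tested there had estimates from -0.79 to 0.18. The 3 comparisons share their healthy libraries in pairs.

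**Figure D4:**
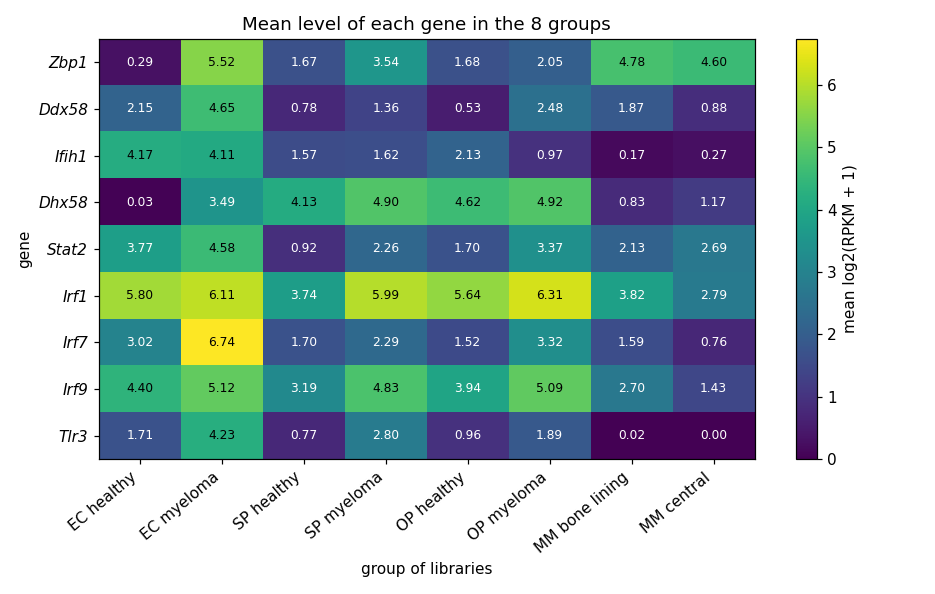
Mean log2(RPKM + 1) of each gene in the 8 groups, on a colour scale from 0, with the value written in each cell. EC myeloma holds the highest value of the map, Irf7 at 6.74, and EC healthy is near 0 for Dhx58 (0.03) and Zbp1 (0.29).

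The levels of the sensors in myeloma cells are given without a test against the niche. Zbp1 was above 1 RPKM in all 10 libraries, at 27.7 ± 9.83 RPKM in the bone lining and 26.2 ± 15.1 RPKM in the central marrow (SD, n = 5). Tlr3 was all but silent, with 0 reads in each of the 5 central marrow libraries and 0 to 3 reads in the bone lining. In the central marrow 3 reads over the group would be 0.00628 RPKM, and the exact 95% Poisson limit was 0.00772 RPKM. Ifih1 had 0 to 2 reads in 8 of the 10 libraries, and 57 and 171 reads (0.773 and 1.45 RPKM) in the bone lining and central marrow libraries lettered J. Ddx58 had no read in bone lining J and 34 to 1144 reads in the other 9 libraries, Dhx58 ran from 0 to 9.90 RPKM and Irf7 from 0.0398 to 5.79 RPKM.

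The bone lining was then set against the central marrow. Limma called 0 of the 7 genes tested (Ifih1 and Tlr3 did not pass the filter), beside 0.203% of all genes, with 1 (Irf9) at an unadjusted p below 0.05, as were 5.98% of all genes. Irf9 was at 12, 2.64, 4.73, 5.11 and 6.13 RPKM in bone lining libraries D, E, G, I and J and at 1.16, 6.15, 0.736, 1.23 and 1.36 RPKM in the central marrow. Central marrow E was the exception that overlapped the bone lining. The log2 difference was 1.28 ± 0.49 (SE, n = 5 and 5), with adjusted p = 0.770 in limma and an exact permutation p of 0.0397.

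Stat2, the partner of Irf9, had an estimate of the other sign. It was at 4.16, 2.52, 2.84, 4.56 and 3.08 RPKM in bone lining D, E, G, I and J and at 7.12, 4.03, 8.28, 3.81 and 5.08 RPKM in the central marrow. The log2 difference was -0.56 ± 0.39 (SE), with adjusted p = 0.942 in limma and an exact permutation p of 0.0476. Of the 9 genes 0 had every bone lining library above every central marrow library (0.903% of genes did) and 0 had every one below (0.565%). Ddx58 was above every central marrow library in 4 of 5 bone lining libraries (2.61 to 9.08 RPKM) and without a read in J, and Irf1 averaged 15.3 ± 8.27 RPKM in the bone lining against 6.83 ± 4.08 RPKM.

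Other genes of the pathway were taken from 4 hand-written lists. In endothelial cells limma on the libraries compared called 0 of the 14 other sensors and adaptors tested, 0 of the 8 other interferon regulatory factors and STATs, 0 of the 8 receptors and kinases and 0 of the 9 feedback inhibitors between healthy and myeloma-bearing mice, beside 0% of all genes. Voom-limma on all 38 libraries called 2, 0, 0 and 0 as higher, beside 1.4% of all genes. The 2 were Adar, an RNA-editing enzyme that limits sensing of self RNA (0.875 to 13.3 RPKM in means, log2 difference 6.61 ± 1.66 (SE), adjusted p = 0.0374), and the DNA sensor Ifi204 (19.1 to 92.5 RPKM in means, 3.06 ± 0.88, adjusted p = 0.0792). Median differences were 1.13, 1.19, -0.45 and 1.35 in the 4 lists against 0.07 over all genes. In stromal progenitors and osteoprogenitors neither fit called any gene of these lists.

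Between healthy cell types limma called 1 of 15, 0 of 7, 1 of 8 and 2 of 7 genes of the 4 lists for endothelial cells against stromal progenitors, where 17.3% of all genes were called, 2 of 10, 0 of 7, 3 of 7 and 1 of 6 for endothelial cells against osteoprogenitors (16.5%), and 1 of 10, 0 of 7, 0 of 8 and 0 of 5 for stromal progenitors against osteoprogenitors (3.58%). Healthy endothelial cells were above healthy stromal progenitors in limma for Trim25, which activates RIG-I (log2 difference 3.28, adjusted p = 0.0504), the kinase Jak1 (1.82, 0.0421) and the feedback inhibitors Trim30a (4.56, 0.00649) and Usp18 (3.56, 0.0907). Against healthy osteoprogenitors they were higher for Trim30a, Ifi204, Jak1 and the receptor chains Ifnar2 and Il10rb, and lower for Ripk1, a kinase of the necroptosis and inflammatory pathways (-2.73, 0.0712). Voom-limma on all 38 libraries added Irf8, Unc93b1, Ifnar2 and Il10rb as higher and Irf4 as lower in healthy endothelial cells than in healthy stromal progenitors, Tmem173 (STING) as higher than in healthy osteoprogenitors, and Tyk2 as higher in healthy stromal progenitors than in healthy osteoprogenitors. Ifnar2 lost its call against healthy osteoprogenitors in that fit (adjusted p = 0.135). Ifi204 was also higher in healthy stromal progenitors than in healthy osteoprogenitors (4.15, adjusted p = 0.0131). No interferon ligand of the list was in the table, so none was analysed here.

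The 9 genes did not move as 1 block. Over 36 pairs Pearson's r across the 38 libraries ran from -0.19 to 0.70 with a median of 0.29, a description that mixes cell type and disease. Among 12683 genes the 3 most alike in pattern to Ddx58 were Ifi44, Tead2 and Mx1 (r 0.76, 0.75 and 0.69), and for Stat2 they were Ifi47, BC028528 and Arl15 (0.74, 0.70 and 0.69). Ifih1 was most like Eng, Xaf1 and Mcam (0.81, 0.80 and 0.79), and Dhx58 like Olfm1, Ibsp and Plat (0.87, 0.84 and 0.84). Zbp1 was most like Mcm6, Adar and Fem1a (0.75, 0.66 and 0.66), Irf7 like Zcchc2, Nr2f2 and Gm4951 (0.78, 0.77 and 0.77) and Irf1 like Ppp1r15a, Irf2bp2 and Angptl4 (0.79, 0.78 and 0.77). For Irf9 they were Eml1, Cpne8 and Zmiz1 (0.71, 0.70 and 0.70) and for Tlr3 Bok, Tnfsf12 and Cfb (0.75, 0.74 and 0.73).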

How the data were processed

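The authors aligned 50-base single-end SmartSeq2 reads to GRCm38 (mm10) with STAR 2.4.0, counted them with featureCounts of Subread 1.4.5-p1, dropped genes that did not exceed 1 CPM in 4 or more samples, and deposited RPKM values made with edgeR. Tools and versions are from the study's methods and the submitters' processing notes. Each column was matched to its library by the code in its name, and 0 per-sample columns were left unused.

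Whole reads were recovered from the steps of the deposited RPKM values for 100% of the 13260 genes (tolerance 0.001), giving 9735031 to 34883291 reads per library. The main test was limma 3.58.1 (R 4.3.3) with a trend on log2(RPKM + 1) in the libraries compared, for genes over 1 RPKM in 4 or more of them, with Benjamini-Hochberg adjustment over all genes tested, an adjusted p below 0.1 and an absolute log2 difference above 1. The pseudocount of 1 understates the change of low genes. Exact two-sided permutation tests used the same scale (numpy 2.4.6), and the Poisson intervals were computed with scipy 1.17.1. The limma and read-recovery steps were tested on simulated data.

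Alternatives were a pseudocount of 0.1, no filter, median-of-ratios scaling, all 38 libraries in one fit, voom-limma on recovered reads, a replicate block and leaving out each library. Leaving out neutrophil-rich or macrophage-marker libraries was added after the marker sums were seen. Of the 9 genes each comparison gives values or a range, other pathway genes where they passed limma or voom-limma, and the 3 genes of highest r for likeness. The 9 genes and the lists were chosen with earlier results of these data known. Counting intervals and floors cover counting error only.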

Additional observations from a re-analysis of the deposited data

Results flagged for a closer look

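In 72 groups of 4 or 5 libraries, 1 library stood apart from the others by Dixon's criterion in 11, where chance flags about 1 in 20 groups of normally distributed values. RPKM values are skewed and hold zeros, and the rate over all genes was not computed. High libraries in the niche were Zbp1 in healthy endothelial O at 1.37 RPKM (others at most 0.0790), Ddx58 in healthy stromal C at 8.39 RPKM (others at most 0.281) and Ifih1 in osteoprogenitors G of myeloma-bearing mice at 12.8 RPKM (others at most 0.0456). High libraries among myeloma cells were Ifih1 in bone lining J at 0.773 RPKM and in central marrow J at 1.45 RPKM, Dhx58 in bone lining E at 9.90 RPKM (others at most 0.567), Irf9 in central marrow E at 6.15 RPKM (others 0.736 to 1.36) and Tlr3 in bone lining J at 0.0519 RPKM, which is 3 reads. Low libraries in myeloma-bearing mice were Irf1 in stromal progenitors J at 12.2 RPKM (others 68.7 to 135), Irf1 in osteoprogenitors D at 42.1 RPKM (others 92.9 to 102) and Irf7 in osteoprogenitors D at 0 RPKM (others 15.9 to 24.1).

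The change of Dhx58 with myeloma differed between cell types in voom-limma on all 38 libraries, by 7.77 on the log2 scale between endothelial cells and stromal progenitors (adjusted p = 0.0157) and by 8.33 between endothelial cells and osteoprogenitors (adjusted p = 0.0191). Neither passed in limma on the libraries compared or in limma on all 38 (adjusted p = 0.376 and 0.419).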

How the results depend on the processing

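Of 498 log2 differences of the 9 genes under other settings, 472 kept their direction and side of the threshold, 2 lost a call, 12 gained one and 12 changed sign; of 984 with a library left out the counts were 931, 5, 2 and 46. None of the 58 that changed sign passed the threshold. All 36 permutation p-values kept their side of 0.05 with a pseudocount of 0.1. The cause of these changes was not tested.

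For myeloma-bearing against healthy mice limma on all 38 called 150 genes in endothelial cells, 28 in stromal progenitors and 24 in osteoprogenitors, and voom-limma on all 38 called 251, 82 and 28. In endothelial cells 3 of the 9 were called in both. Voom-limma on the libraries compared called 4 genes, 1 of the 9 among them (Zbp1), in endothelial cells, 0 in osteoprogenitors and 8 in myeloma cells. Without a filter limma called 2, 1 of them Zbp1, in endothelial cells, 0 in osteoprogenitors and 1 in myeloma cells. Stromal progenitors gave 1 gene without the neutrophil-rich libraries. For the interactions limma on all 38 called 12, 22 and 16 genes (endothelial against stromal, endothelial against osteoprogenitor, stromal against osteoprogenitor) and voom-limma on all 38 called 51, 15 and 16, with 1 of the 9 (Dhx58) in each of the first 2. A pseudocount of 0.1 gave 2 genes in the second and 1 in the third. Between healthy cell types limma on all 38 called 2469, 2570 and 501 genes, with 4, 2 and 0 of the 9.

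Signs changed for Ifih1 in the first interaction without the neutrophil-rich libraries (0.033) and for Tlr3 there without the macrophage-marker libraries (-0.40). In the second, Irf9 was 0.0066 in voom-limma on all 38. In the third, Stat2 was 0.56 with a pseudocount of 0.1 and 2.74 in voom-limma on all 38. Between healthy stromal progenitors and osteoprogenitors Zbp1 was 0.39 and Tlr3 0.000696 without the neutrophil-rich library.

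The letters were not taken as pairs. Same-letter correlations of deviations from the group means ran from -0.049 to 0.090 over the myeloma sites and the niche types of either condition. Letters correlated best with their own in 4 of 4 cases for myeloma-bearing endothelial cells and osteoprogenitors. For stromal progenitors and osteoprogenitors it was 3 of 4, in healthy and in myeloma-bearing mice. For endothelial cells and stromal progenitors it was 2 of 5 in each. It was 1 of 4 for healthy endothelial cells and osteoprogenitors and 1 of 5 between the myeloma sites. With letter as a replicate block, 12 genes were called between myeloma cells of the 2 sites, Ddx58 and Irf9 were -0.37 and 0.56 in the second interaction, Stat2 was 0.093 in the third, and Zbp1 and Irf7 were 0.40 and -0.36 between healthy stromal progenitors and osteoprogenitors. The call of Irf1 between healthy endothelial cells and stromal progenitors was lost under the block (adjusted p = 0.107).

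With 1 library left out, genes called ranged from 0 to 1 in stromal progenitors, 0 to 1 in osteoprogenitors, 10 to 24 in myeloma cells, 0 to 2, 0 to 1 and 0 to 1 in the interactions, 567 to 1372 between healthy endothelial cells and osteoprogenitors and 181 to 343 between healthy stromal progenitors and osteoprogenitors. Of the 9, 1 to 4, 0 to 1 and 0 to 1 were called between the healthy types. Ifih1 ranged from -0.58 to 0.52 in endothelial cells, -0.47 to 0.63 in stromal progenitors, -0.69 to 0.48 in the first interaction and -1.15 to 0.093 between healthy stromal progenitors and osteoprogenitors. Zbp1 ranged from -0.20 to 1.03 in osteoprogenitors, -0.072 to 0.46 in myeloma cells and -0.57 to 0.40 between healthy stromal progenitors and osteoprogenitors, where Irf7 ranged from -0.36 to 0.76 and Tlr3 from -0.51 to 0.000696. In the interactions Tlr3 ranged from -0.21 to 1.28 in the first, Irf9 from -1.13 to 0.20 and Irf1 from -0.65 to 0.20 in the second, and Stat2 from -0.83 to 0.23 and Irf9 from -0.17 to 1.27 in the third. Irf1 ranged from -0.40 to 0.41 between healthy endothelial cells and osteoprogenitors.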
